A study of Mus musculus with 4 samples.

Results

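The genes examined were 18 germline genes: Mael, Tdrd5, Gpat2, Tdrkh, Piwil1, Asz1, Spo11, Sycp1, Hormad1, Sohlh1, Nobox, Figla, Zp3, Slc25a31, Stk31, Tuba3a, Tuba3b and Tex101. Their products act in sperm, eggs or the precursors of either. The rule that set them used names and positions, but the genes were chosen with earlier results of these data known. They were 18 of 9571 protein-coding genes in the part of the genome that the table covers, chromosomes 1 to 7 up to position 139972600 of chromosome 7. A gene's locus was its annotated span with 1000 bp on each side, and the 18 loci held 483 of the 1048575 windows of 100 bp in the table.

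DNA methylation was profiled by MeDIP-seq, in which an antibody to 5-methylcytosine pulls methylated fragments out of sheared genomic DNA before sequencing. The DNA came from NKT thymocytes of C57BL/6 mice, sorted from the thymus by CD1 tetramer, and the mice were WT or PLZFon. PLZF is a transcription factor that directs the development of NKT cells, and for the PLZFon allele no description, promoter or target cell is given in the labels. Each genotype had 1 MeDIP library and 1 library of input DNA, so no difference between genotypes has a replicate check, and the labels give neither the age of the mice nor whether animals were pooled. By title the WT and PLZFon MeDIP libraries are pull-downs, but the antibody label reads "none" for PLZFon MeDIP and names the 5-methylcytosine antibody for the WT input. The titles were followed. Over all listed windows the pull-down rose with CpG number in both MeDIP libraries, from 3.68 times the input share of reads with 1 CpG to 6.59 times with 5 or more in WT, and from 3.57 to 6.03 times in PLZFon. Since MeDIP does not measure expression, neither the sort nor the silence of these genes could be checked with these libraries. The totals, recovered from the counts and their normalized values, were 15141449 reads for WT MeDIP, 10633609 for PLZFon MeDIP, 60683037 for the WT input and 50374582 for the PLZFon input.

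Many genes of the germ line are kept silent in somatic cells by DNA methylation of their promoters. Most promoters rich in CpG stay free of methylation in most cell types, and a set of germline genes is a textbook exception: their CpG-rich promoters gain methylation around the time of implantation and keep it in the body's tissues. Genes of the piRNA pathway, which silences transposons in germ cells, and of meiosis are among the best known members of that set. E2F6 and the MGA-MAX pair, which bind DNA in a repressive Polycomb complex, are known to mark part of these promoters.

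The start of a gene was the position given by the RefSeq promoter table of GRCm38.p6, the patch release of the mm10 assembly that the windows use. Where several starts are given for a gene, the outermost was taken. The start region was the 300 bp from 250 bp before to 50 bp after that start. A start was found for 17 of the 18 genes, all but Spo11. In Tdrd5, Gpat2, Tdrkh, Piwil1, Nobox, Figla and Stk31 the start lay inside the annotated span of the gene, in Tdrkh by 1 bp. Sequences of the 250 bp upstream of the start are shown for 8 genes because the windows there carry the pull-down described next (Sycp1, Asz1, Mael, Tuba3a and Tuba3b), because both motifs given next occur there (Hormad1, whose listed window lies just inside the gene), because no window was listed within 1000 bp of the start (Tdrkh), or because WT and PLZFon counts differed around the start (Zp3). They are read 5′ to 3′ on the strand of the gene, and capitals mark the CpGs, the sites of methylation. The plus-strand genes were Hormad1 (chr3:95559427-95559676), Tdrkh (chr3:94412994-94413243), Tuba3b (chr6:145615713-145615962) and Zp3 (chr5:135979855-135980104). The minus-strand genes were Sycp1 (chr3:102936101-102936350), Asz1 (chr6:18109062-18109311), Mael (chr1:166238745-166238994) and Tuba3a (chr6:125286082-125286331).
Sycp1: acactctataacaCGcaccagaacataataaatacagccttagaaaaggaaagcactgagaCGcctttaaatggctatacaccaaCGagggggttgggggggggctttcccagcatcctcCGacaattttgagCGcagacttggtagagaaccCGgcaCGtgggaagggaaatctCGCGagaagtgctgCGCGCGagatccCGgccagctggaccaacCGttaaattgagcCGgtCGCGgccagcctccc
Asz1: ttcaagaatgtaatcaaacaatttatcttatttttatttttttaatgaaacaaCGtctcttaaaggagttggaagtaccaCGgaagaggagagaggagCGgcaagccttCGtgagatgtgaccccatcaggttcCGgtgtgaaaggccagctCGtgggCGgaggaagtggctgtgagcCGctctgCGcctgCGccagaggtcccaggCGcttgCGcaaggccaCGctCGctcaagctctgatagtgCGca
Mael: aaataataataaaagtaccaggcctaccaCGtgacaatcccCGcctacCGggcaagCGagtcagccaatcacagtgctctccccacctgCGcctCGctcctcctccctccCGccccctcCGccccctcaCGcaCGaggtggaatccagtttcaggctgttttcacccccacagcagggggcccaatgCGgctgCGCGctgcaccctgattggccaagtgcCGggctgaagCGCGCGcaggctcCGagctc
Hormad1: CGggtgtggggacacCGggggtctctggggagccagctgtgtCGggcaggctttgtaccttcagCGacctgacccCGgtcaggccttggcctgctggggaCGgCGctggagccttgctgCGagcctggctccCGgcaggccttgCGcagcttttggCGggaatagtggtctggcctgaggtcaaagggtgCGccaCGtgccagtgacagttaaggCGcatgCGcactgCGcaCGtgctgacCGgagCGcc
Tuba3a: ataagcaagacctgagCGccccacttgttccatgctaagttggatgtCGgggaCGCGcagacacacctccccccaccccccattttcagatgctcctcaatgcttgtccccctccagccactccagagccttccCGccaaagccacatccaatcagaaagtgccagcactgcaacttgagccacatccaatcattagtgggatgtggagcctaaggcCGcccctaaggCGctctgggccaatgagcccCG
Tuba3b: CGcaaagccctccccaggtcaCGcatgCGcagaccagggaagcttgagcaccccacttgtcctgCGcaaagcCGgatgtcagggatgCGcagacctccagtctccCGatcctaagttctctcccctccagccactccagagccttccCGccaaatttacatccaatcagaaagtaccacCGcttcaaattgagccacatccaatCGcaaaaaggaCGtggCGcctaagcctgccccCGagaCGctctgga
Tdrkh: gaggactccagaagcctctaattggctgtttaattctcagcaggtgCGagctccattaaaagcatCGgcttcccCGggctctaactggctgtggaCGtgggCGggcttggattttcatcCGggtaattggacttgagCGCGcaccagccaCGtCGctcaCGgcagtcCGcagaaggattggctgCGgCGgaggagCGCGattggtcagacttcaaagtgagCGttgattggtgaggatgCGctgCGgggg
Zp3: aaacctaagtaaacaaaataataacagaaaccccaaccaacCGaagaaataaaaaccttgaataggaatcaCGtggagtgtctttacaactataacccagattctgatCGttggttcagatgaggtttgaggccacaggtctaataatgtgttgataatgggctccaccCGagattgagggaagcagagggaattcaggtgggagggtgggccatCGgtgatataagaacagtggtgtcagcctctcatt

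The start regions were rich in CpG. In 16 of the 17 the 300 bp held at least 10 CpGs, the median was 18, and Tdrd5 had the most with 48. Zp3, with 7 CpGs, had the fewest. The CpGs of Sycp1 crowd towards the start, and those of Tdrkh and Mael are spread over the sequence. Tuba3a and Tuba3b, which encode near-identical alpha-tubulins of the testis, share stretches of upstream sequence, with 63.6% identity over the alignment of the 250 bp, gaps counted. Whether reads of this pair can be told apart along the genes was not tested, so their counts stay uncertain.

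The letters TCCCGC, the core of E2F sites, occurred on either strand in the start regions of 9 of 17 genes: Mael, Tdrd5, Gpat2, Sycp1, Hormad1, Zp3, Slc25a31, Tuba3a and Tuba3b. They occurred in 25.0% of all 8033 start regions and in 41.0% of the 4527 with at least 10 CpGs, against 8 of 16 of the germline genes that rich. The E-box CACGTG, the letters that MAX and its partners bind, occurred in 8 of 17: Mael, Piwil1, Sycp1, Hormad1, Sohlh1, Zp3, Slc25a31 and Stk31. It occurred in 7.67% of all start regions and in 11.0% of those with at least 10 CpGs, against 7 of 16 of the germline genes that rich. Counting the base before the start as -1, CACGTG began at -94 in Sycp1, at -223 in Mael, and at -57 and -20 in Hormad1. The Sohlh1 start region held it at -231, -211 and -192. No match to one of these motifs shared a base with a match to the other, and a match describes letters, not a bound site.

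The first comparison asked whether CpG-rich starts of germline genes were pulled down where other CpG-rich starts were not. It was added after values were seen, so it is a description and not an independent test. The table lists a window only when the MeDIP libraries together have at least 10 reads in it, and it was listed windows that were counted. Since the libraries are summed, a listed window need not be pulled down in each genotype. Start regions of 12 of 17 germline genes, 70.6% (exact binomial 95% interval 44.0 to 89.7%), held a listed window. Over all protein-coding genes the share was 9.45%, from 759 of 8033. Among start regions with at least 10 CpGs the germline genes had 11 of 16, 68.8% (41.3 to 89.0%), against 3.69% of all genes, 167 of 4527. Where a window needed at least 20 reads the germline count was 5 of 17, against 3.59% of all genes. With at least 5 reads in each MeDIP library it was 8 of 17, against 7.22% of all genes. Intervals of shares of genes are binomial over genes, which were picked by name and not drawn at random. Intervals of read ratios below cover counting error only, and reads without molecular identifiers can be copies of a molecule.

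The contrast was present in each class of CpG number with more than 1 germline gene. With 10 to 19 CpGs, 6 of 9 germline genes had a listed start window, against 7.39% of all genes. With 20 to 29 CpGs the count was 5 of 6, against 2.04%. A list of 36 housekeeping genes, which are active in nearly all cells, had 21 genes with a start in range. Of these 1 had a listed start window, the ribosomal protein gene Rpl22 with 8 CpGs. None of the 19 with at least 10 CpGs had one, which allows a share of up to 17.6% by the upper bound of the exact interval. Of 20 other germline genes with a start in range 8 were listed. Those with fewer than 10 CpGs lay near the share of all genes. With 5 to 9 CpGs 2 of 8 were listed, against 27.3% of all genes, and with 0 to 4 CpGs 1 of 5, against 12.5%. Only those with at least 10 CpGs went the same way as the 17, with 5 of 7 listed, against 3.69% of all genes. Those 5 were Brdt, a bromodomain protein of spermatids, Fkbp6, a co-chaperone of the piRNA pathway, Sohlh2, the partner of Sohlh1, Stra8, the gatekeeper of meiotic entry, and Sycp2, of the synaptonemal complex.

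**Figure D1:**
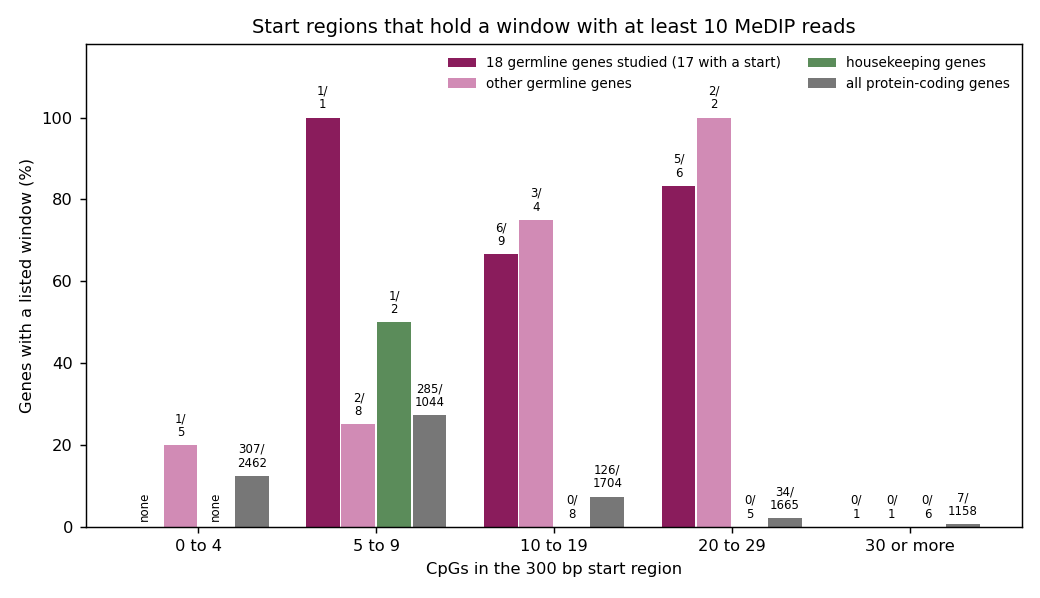
Share of genes, in percent, whose 300 bp start region holds a window with at least 10 MeDIP reads over both genotypes, by the number of CpGs in the start region; numbers above the bars are genes listed over genes in the class. Of the 17 germline genes with a start, 6 of 9 with 10 to 19 CpGs and 5 of 6 with 20 to 29 were listed, against 126 of 1704 and 34 of 1665 of all genes.

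Widening the view to 1000 bp on either side of the start gave a like picture. Of the 357 tiles of 100 bp there, 99 were listed for the germline genes, 27.7% (23.1 to 32.7%). The share was 7.98% for all genes, 4.99% for housekeeping genes and 26.4% for the other germline genes. Tiles next to each other share reads, so these intervals are too narrow. Input reads are not given for windows that are not listed, so mappability of unlisted starts was not tested.

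The window with the most CpGs among these start regions lay in Sycp1, which encodes the transverse filament of the synaptonemal complex. That window, chr3:102936101-102936200, has 12 CpGs and reaches from the start into the sequence shown above. It had 13 reads in WT MeDIP, 4 in PLZFon MeDIP, 21 in the WT input and 14 in the PLZFon input. The neighbouring window upstream, with 4 CpGs, had 20, 9, 18 and 13 reads in the same order, and the next, also with 4 CpGs, had 21, 9, 17 and 11. Scaled to library totals, WT MeDIP stood highest in all 3 windows and PLZFon MeDIP stood above both inputs. Windows are listed for their MeDIP reads, so an excess over input is partly set by the listing. All listed windows together stood at 4.44 times input in WT and 4.22 times in PLZFon. In the other meiotic gene with a start, Hormad1, whose product marks unsynapsed chromosome axes, 1 window of 6 CpGs just inside the gene had 9, 4, 11 and 3 reads.

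Start windows of the piRNA pathway genes were listed in 3 of 6. Asz1 encodes a protein of the mitochondria-associated germ granules in which piRNAs are made. Its window next to the start, with 7 CpGs, had 8 reads in WT MeDIP, 3 in PLZFon MeDIP, 10 in the WT input and 5 in the PLZFon input. Mael, whose product is needed to silence transposons, had 1 window with 5 CpGs and 11, 4, 5 and 8 reads in that order. Piwil1, the PIWI protein that carries piRNAs in meiotic and later male germ cells, had a window with 5 CpGs and 8, 7, 9 and 7 reads. All 3 windows had more MeDIP than input reads, scaled to library totals, in both genotypes. Listing by MeDIP reads partly sets this excess, which is also that of listed windows in general.

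Among the genes for regulators of germ-cell fate, the Sohlh1 start was listed. Sohlh1 is a helix-loop-helix factor of early spermatogonia and oocytes, and its window with 6 CpGs had 7 reads in WT MeDIP, 8 in PLZFon MeDIP, 5 in the WT input and 6 in the PLZFon input. All 6 genes for proteins of gametes and late germ cells had a listed start window. Tex101, a surface protein of germ cells, had 9, 5, 11 and 6 reads over a window with 8 CpGs that spans its start. In Tuba3b the window over the start, with 7 CpGs, had 13, 6, 6 and 7 reads. Tuba3a had 13, 13, 10 and 6 reads in a window with 6 CpGs farther upstream, part of which opens the sequence shown above. The smallest counts were those of Stk31, a germ-cell protein with Tudor and kinase domains, where a window of 4 CpGs had 3 reads in WT MeDIP, 7 in PLZFon MeDIP, 12 in the WT input and 9 in the PLZFon input. Scaled to library totals, WT MeDIP was level with the WT input there, and the window was listed mostly through PLZFon reads. The Stk31 start region stood at 1.22 times input in WT (0.0966 to 7.43) and 3.24 times in PLZFon (0.536 to 16.7). Zp3, the zona pellucida protein that surrounds the egg, and Slc25a31, the ATP carrier of germ-cell mitochondria, were listed through windows with 1 or 2 CpGs.

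Start windows were not listed in 5 genes: Tdrd5, Gpat2, Tdrkh, Nobox and Figla. Tdrkh, a Tudor protein on mitochondria that helps trim piRNAs, has 25 CpGs in its start region, as the sequence above shows for its upstream part, and had no listed window within 1000 bp. Its whole locus still held 14 listed windows, with the most reads just past its far end, at chr3:94435001-94435100. Tdrd5, a Tudor protein of germ granules with 48 CpGs, had 6 listed tiles within 1000 bp, Gpat2, an acyltransferase of mitochondria needed for piRNAs, had 5, the oocyte homeobox gene Nobox had 8 and the oocyte factor Figla had 5. In each of these 4 genes windows near the start were listed while those in the start region were not.

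**Figure D2:**
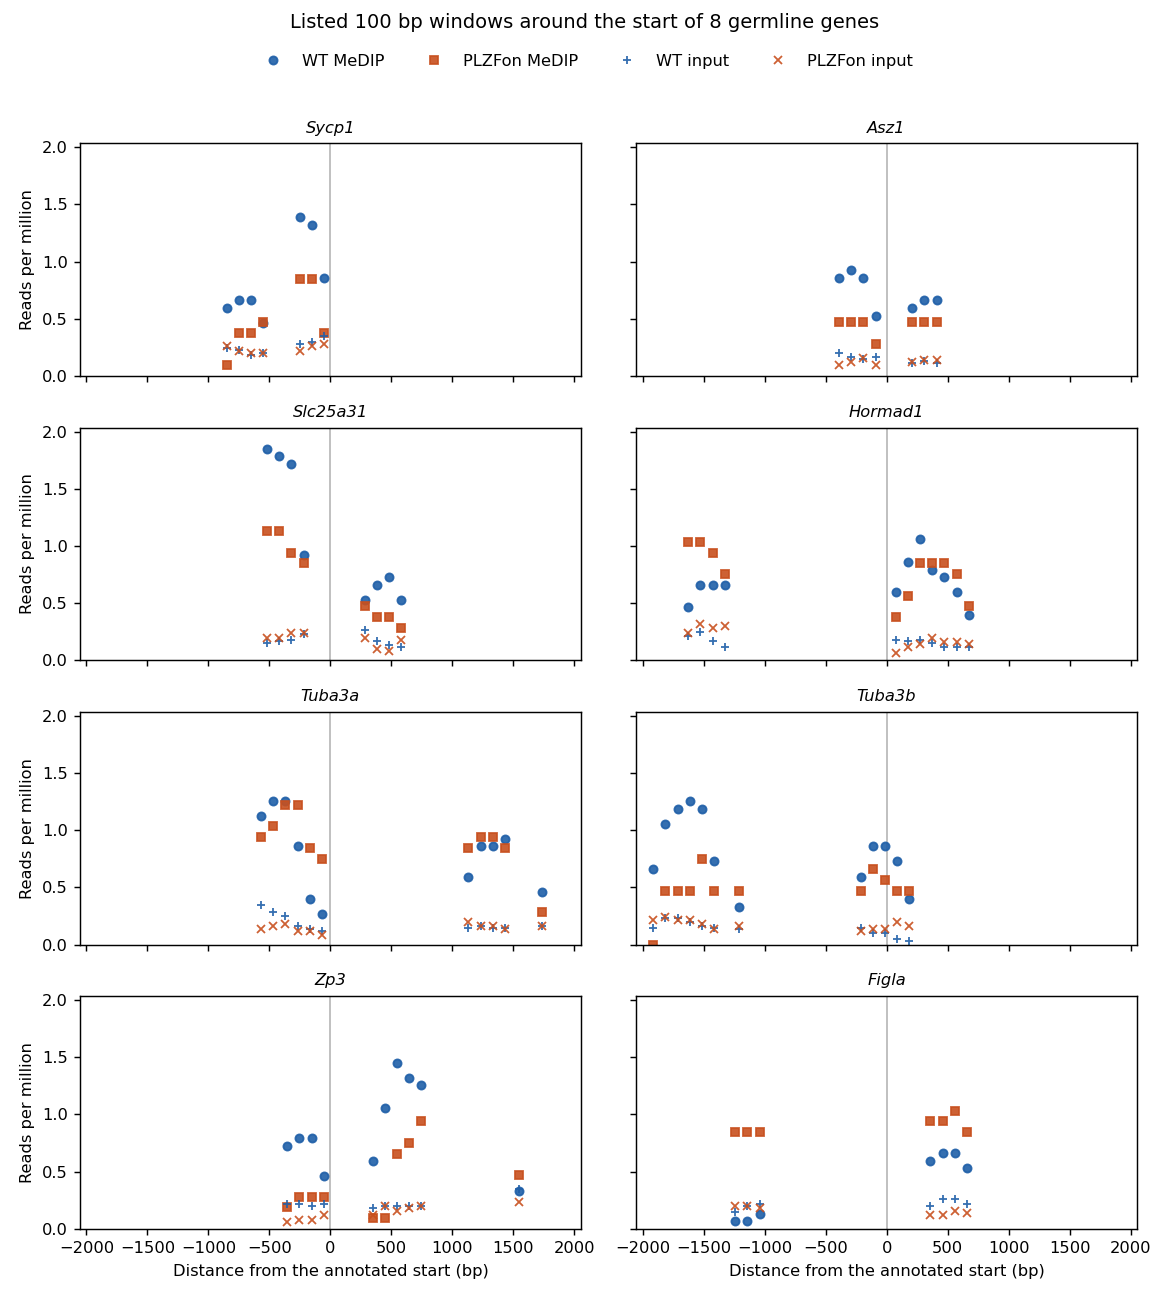
Reads scaled to the library total (the unit on the axis) in each listed 100 bp window against distance from the annotated start in bp for 8 germline genes, with MeDIP as filled symbols, inputs as crosses, WT in blue and PLZFon in orange; unlisted windows are not drawn. Around Slc25a31 the WT MeDIP points upstream of the start are the tallest drawn, and around Figla the WT points upstream of the start lie below the inputs while the PLZFon points lie above them.

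The second comparison set gene ends apart from gene bodies. Ends were windows within 1000 bp of either end of the annotated span, and bodies were the rest of it. At the ends 140 windows had a mean of 3.04 CpGs, and 18.6% of them had 5 or more. The 343 body windows had a mean of 2.36, close to the 2.34 of all listed windows, and 6.71% had 5 or more. In the start regions the mean of 26 windows was 4.5, and 42.3% had 5 or more, against 7.80% of all listed windows.

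Pull-down strength, the MeDIP share of reads divided by the input share, did not separate ends from bodies. To count a read once, sums over windows were divided by 4, the number of windows in which a read is counted, so that reads over a gene need not be whole. Ends of the 18 genes together stood at 3.65 times input in WT (exact 95% interval 3.16 to 4.22) and 3.76 times in PLZFon (3.16 to 4.48). Bodies stood at 3.89 times in WT (3.55 to 4.26) and 3.53 times in PLZFon (3.18 to 3.93). Ends were above the body in 9 of 18 genes in WT and in 10 of 18 in PLZFon, and the intervals of ends and body overlapped in all 18 genes in both. A window needs MeDIP reads to be listed, so the ratios are read only against those of other genes: ends of all protein-coding genes stood at 4.05 times in WT and 3.80 times in PLZFon.

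In each class of CpG number, listed windows of the 18 loci did not stand higher over input than all listed windows. With 5 or more CpGs, those of the 18 loci stood at 4.34 times input in WT (3.39 to 5.56) and 4.40 times in PLZFon (3.29 to 5.88). All listed windows that rich stood at 6.59 and 6.03 times. In the germline start regions they stood at 4.45 times (2.50 to 7.96) and 3.89 times (1.88 to 7.94), against 4.93 times in all start regions in each genotype. With 1, 2 or 3 CpGs germline start regions stood above all start regions in both genotypes, with intervals that hold the values of all. With 4 CpGs they stood below in WT and above in PLZFon. Over any CpG number they stood at 4.18 times (2.93 to 5.95) in WT and 4.15 times (2.66 to 6.46) in PLZFon. All start regions stood at 3.66 and 3.42 times. Slc25a31 ends were the most strongly pulled down in WT, at 6.22 times input (3.50 to 11.3), and Figla ends the least, at 0.471 times (0.0107 to 3.46). Of the other germline genes, Zar1, an oocyte factor, and Sohlh2 had the strongest ends in WT, at 9.35 and 8.21 times input. Nanos2, a translational regulator of male germ cells, at 2.29 times, and Tdrd7, a germ-granule Tudor protein, at 2.62 times, had the weakest. Housekeeping ends spanned 2.61 times in Rplp0 and 2.86 in Rpl11, both for ribosomal proteins, to 6.34 in Psmb4 and 6.67 in Psmc2, both for the proteasome.

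**Figure D3:**
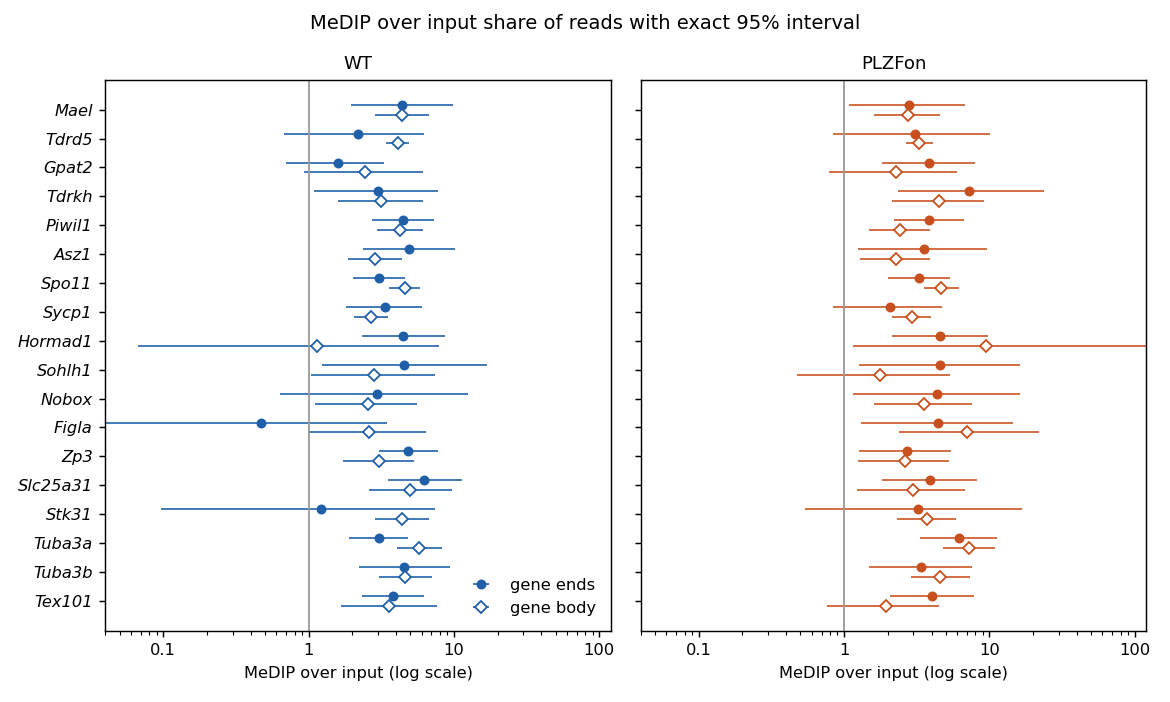
MeDIP share of reads over input share on a log axis for each germline gene, at gene ends (filled circles) and over gene bodies (open diamonds), in WT (left) and PLZFon (right), with exact 95% intervals of counting error; the grey line marks equality. The 2 intervals of each gene overlap in both genotypes; the Figla interval in WT and the Hormad1 body interval in PLZFon run past the axis.

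The third comparison was PLZFon against WT. The PLZFon share of MeDIP reads over a locus was divided by the WT share, with an exact interval for counting error. A locus was called when both libraries together had at least 20 reads, the ratio was at least 2-fold either way and the interval left out equality. All 18 loci had at least 20 reads. Figla was called higher in PLZFon and none was called lower. Of 7667 protein-coding loci, 0.0913% were called higher and 0.352% lower, 0.443% in either direction. The count of 1 in 18 rests on an interval that starts at 1.01. Ratios were below 1 in 8 of 18 loci, against 62.3% of all loci, and the median log2 ratio was 0.04, against -0.06 over all loci, -0.07 over the other germline genes and -0.08 over the housekeeping genes. Over the 18 loci together PLZFon stood at 0.933 times WT (0.855 to 1.02), with the inputs at 0.992 times. Over all protein-coding loci together PLZFon stood at 0.961 times WT.

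Genes of the piRNA pathway had ratios on both sides of 1. Tdrd5 (chr1:156255296-156304304) had the most reads of the 18 genes, 261.25 in WT MeDIP, 152.5 in PLZFon MeDIP, 260.75 in the WT input and 219.5 in the PLZFon input, and a ratio of 0.831 (0.676 to 1.02). Piwil1 (chr5:128736071-128755474) had 104.25, 54.75, 96.5 and 88.0 reads in that order and a ratio of 0.748 (0.529 to 1.05). In both genes WT MeDIP held the larger share, and the interval reached equality. Mael (chr1:166201385-166238744) had 63.5, 34.0, 58.0 and 58.5 reads and a ratio of 0.762 (0.487 to 1.17). Asz1 (chr6:18050964-18109061) had 59.75, 29.5, 72.25 and 55.25 reads and a ratio of 0.703 (0.436 to 1.11). Tdrkh and Gpat2 went the other way, with PLZFon MeDIP holding the larger share. Tdrkh (chr3:94413243-94434854) had 26.5, 26.25, 34.5 and 24.0 reads and a ratio of 1.41 (0.790 to 2.52). Gpat2 (chr2:127425154-127436093) had 19.5, 22.25, 41.5 and 33.25 reads and a ratio of 1.62 (0.845 to 3.15). The Gpat2 and Tdrkh loci also hold parts of Fahd2a and Oaz3, and their reads cannot be told apart. Summed, the 6 genes stood at 0.850 times WT (0.738 to 0.978), which Tdrd5 dominates. That interval holds the 0.961 times of all protein-coding loci. It covers counting error only, and the genes are not replicates of a genotype.

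Meiotic genes lay close to equality. Spo11 (chr2:172977379-172993576), which makes the DNA breaks that start meiotic recombination, had 182.0 reads in WT MeDIP, 136.0 in PLZFon MeDIP, 178.75 in the WT input and 151.0 in the PLZFon input. Its ratio was 1.06 (0.846 to 1.34). Sycp1 (chr3:102818499-102936100) had 114.75, 77.25, 164.75 and 131.25 reads and a ratio of 0.959 (0.709 to 1.29). After depth the MeDIP libraries of both genes differed by less than counting error. Hormad1 (chr3:95559677-95587863), with 23.25, 19.25, 24.75 and 18.0 reads, had a ratio of 1.18 (0.610 to 2.25).

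Genes for germ-cell regulators had few reads. Sohlh1 (chr2:25842995-25847248) had 15.0 reads in WT MeDIP, 11.0 in PLZFon MeDIP, 17.75 in the WT input and 19.25 in the PLZFon input, a ratio of 1.04 (0.434 to 2.43). Nobox (chr6:43303674-43310072) had 16, 19, 24.25 and 24.0 reads and a ratio of 1.69 (0.824 to 3.52). Figla (chr6:86016494-86020996), a helix-loop-helix factor that turns on zona pellucida genes in oocytes, had 10.25, 16.75, 22.75 and 14.0 reads and a ratio of 2.33 (1.01 to 5.65). PLZFon MeDIP was the higher of the 2 although its library was the smaller, while the inputs went the other way, at 0.741 (0.352 to 1.51). Its 3 windows at chr6:86015901-86016000, chr6:86016001-86016100 and chr6:86016101-86016200, upstream of the annotated span, had 1, 1 and 2 reads in WT MeDIP and 9 in each in PLZFon MeDIP. These neighbours share reads and are not 3 measurements. A window is listed at 10 MeDIP reads over both libraries, so these 3 are listed only through their PLZFon reads. Nearby windows low in both libraries would be absent, so the direction here is partly set by the listing. In the first of them the inputs had 9 and 10 reads. In the 4 listed windows inside the gene the counts were 8 to 10 in WT MeDIP and 9 to 11 in PLZFon MeDIP, the smaller library. Figla was not called with no flank, at a ratio of 1.54 (0.566 to 4.24), with windows of at least 3 CpGs, or with windows of at least 20 reads. Summed, the 3 regulators stood at 1.61 times WT (1.04 to 2.52), against 0.961 times over all protein-coding loci. The sum includes the Figla windows listed through PLZFon, and the intervals of Sohlh1 and Nobox hold 1. The genes are not replicates of a genotype.

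Genes for gamete proteins held the lowest ratio. Zp3 (chr5:135980105-135988624) had 69.0 reads in WT MeDIP, 27.25 in PLZFon MeDIP, 69.0 in the WT input and 48.5 in the PLZFon input. Its ratio was 0.562 (0.347 to 0.888), under 2-fold, and the input ratio was 0.847 (0.574 to 1.24). Intervals left out equality in 5.99% of the 8094 loci with at least 10 reads, and in 2 of these 18, Zp3 and Figla. Slc25a31 (chr3:40708871-40726094) had 56.25, 25.25, 40.0 and 34.75 reads and a ratio of 0.639 (0.383 to 1.04). The other 4 lay nearer to equality. Tuba3a (chr6:125278270-125286081) had 116.75, 91.0, 102.5 and 63.0 reads and a ratio of 1.11 (0.834 to 1.47), with an input ratio of 0.740 (0.532 to 1.02). Tuba3b (chr6:145615963-145621477) had 71.0, 50.75, 61.75 and 56.75 reads and a ratio of 1.02 (0.696 to 1.48). In Tuba3a the inputs were thus farther from equality than the MeDIP libraries. Stk31 (chr6:49395506-49469506) had 51.75, 39.0, 51.5 and 50.5 reads and a ratio of 1.07 (0.690 to 1.66). Tex101 (chr7:24668012-24672050) had 50.0, 27.25, 53.75 and 42.75 reads and a ratio of 0.776 (0.468 to 1.26). Summed, the 6 genes stood at 0.894 times WT (0.763 to 1.05).

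**Figure D4:**
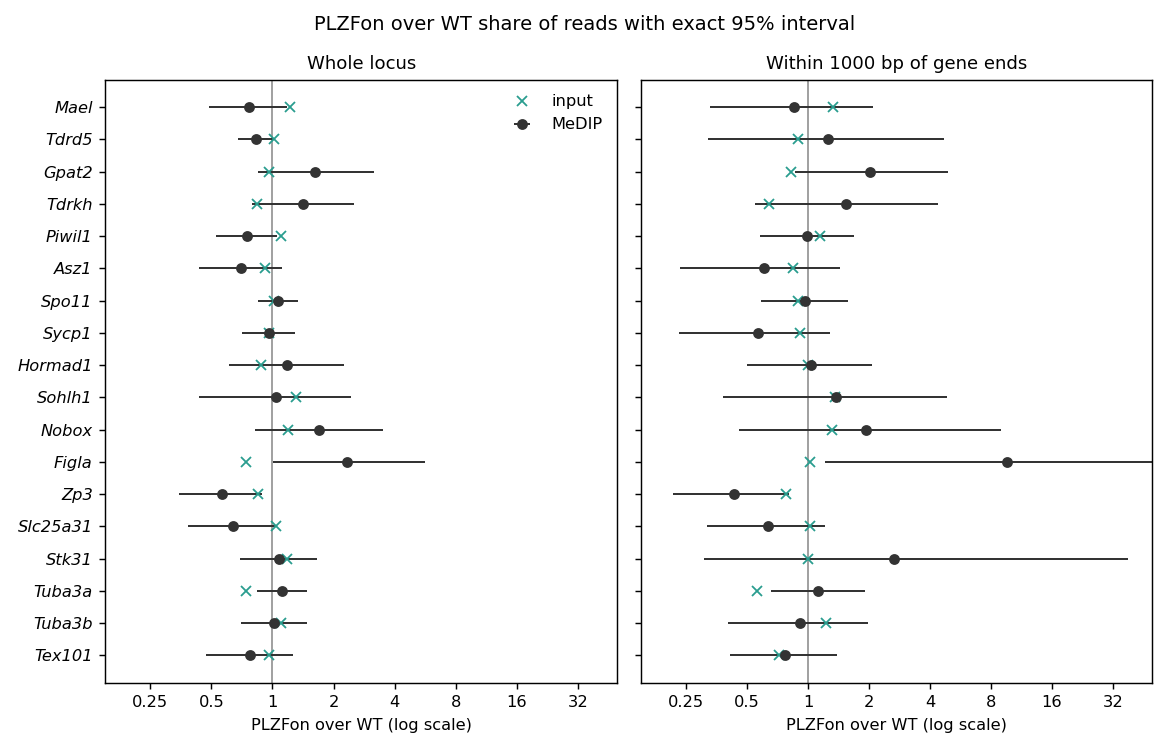
PLZFon over WT share of MeDIP reads (filled circles with exact 95% intervals of counting error) and of input reads (crosses) on a log axis for each germline gene, over the whole locus (left) and within 1000 bp of gene ends (right); the grey line marks equality. Figla lies above equality and Zp3 below it in both panels, and the upper end of the Figla interval at gene ends lies past the axis.

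At gene ends 12 of the 18 genes had at least 20 reads. Zp3 was called lower and none was called higher, where 1.08% of 3890 genes were called lower and 1.44% in either direction. The Zp3 ends had 44.5 reads in WT MeDIP, 13.5 in PLZFon MeDIP, 36.75 in the WT input and 23.75 in the PLZFon input. The ratio was 0.432 (0.216 to 0.809), and that of the inputs was 0.779 (0.444 to 1.34). Scaled to library totals, WT MeDIP was above PLZFon MeDIP in 12 of the 13 listed windows. Of the 13 windows, 9 lay within 1000 bp of the start. Neighbours share reads, so these are not 13 measurements and they restate the ratio. The Zp3 window with the most reads, chr5:135980601-135980700, with 3 CpGs, had 22, 7, 12 and 8 reads. Within 1000 bp of its start alone the ratio was 0.423 (0.182 to 0.893), called lower as well, as were 1.84% of 1140 genes, with 2.37% called in either direction. The Zp3 ends were not called with windows of at least 20 reads, at a ratio of 0.536 (0.216 to 1.21), or with ends taken as 2000 bp, at 0.507 (0.272 to 0.903). Ratios at the ends of the other 11 genes with at least 20 reads ran from 0.570 in Sycp1 to 2.02 in Gpat2, and each interval reached equality. The Sycp1 ends had 22.5, 9.0, 27.0 and 20.5 reads, in the order above, and those of Gpat2 had 10.75, 15.25, 27.25 and 18.75. At the Tuba3a ends the inputs differed, with 45.5 reads in WT and 21.25 in PLZFon, a ratio of 0.563 (0.320 to 0.961), while MeDIP had 34.75 and 27.5 reads, a ratio of 1.13 (0.658 to 1.91). Ends of Figla had 1 read in WT MeDIP and 6.75 in PLZFon MeDIP, under 10 in all, so that the ratio of 9.61 (1.22 to 435) was not measured well enough to call. They hold only the upstream windows listed through PLZFon reads. Ends of the 18 genes together stood at 0.923 times WT (0.781 to 1.09), with the inputs at 0.896 times (0.769 to 1.04).

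Over gene bodies 14 genes had at least 20 reads and none was called, where 0.341% of 6750 genes were. The interval left out equality in 1 of the 17 genes with at least 10 reads, Piwil1, against 5.78% of 7176 genes. The Piwil1 body had 67.0 reads in WT MeDIP, 28.75 in PLZFon MeDIP, 63.0 in the WT input and 56.0 in the PLZFon input. Its ratio was 0.611 (0.380 to 0.959), under 2-fold, and its inputs stood at 1.07. Its window with the most reads, chr5:128747601-128747700, lies there, with 1 CpG and 33, 12, 13 and 15 reads. Bodies of the 18 genes together stood at 0.937 times WT (0.845 to 1.04).

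The authors' deposited table gives a p-value and an adjusted p-value for each window, which compare the 2 MeDIP libraries and not the genotypes. In the authors' deposited table no window of the 18 loci had an adjusted p-value below 0.05, and the smallest was 0.752, in Tuba3a at chr6:125277701-125277800, with a log2 fold of 3.06. In all other 17 genes the smallest adjusted p-value of the authors' deposited table was 1.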

How the data were processed

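MeDIP-seq and input libraries of WT and PLZFon NKT thymocytes, 1 each, were read from a table of 100 bp windows. Per the submitters' processing notes, BWA, edgeR and the mm10 assembly were used, with versions not given in the sources used here. The read counts and RPKM values per window are as deposited by the authors; RPKM served to recover library totals. The CpG factor is a score as deposited, and equalled the CpG number in 97.62% of 2140 windows. The p-values and the log2 folds are as deposited by the authors, and which edgeR settings gave them is not stated.

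Window sums were divided by 4, the distance in windows at which neighbouring input counts stopped sharing reads. Ratios of shares of library totals carry exact Clopper-Pearson 95% intervals (Python 3.11.15, scipy 1.17.1), tested on simulated data. With 1 library a group there is no test of genotype. A call needed at least 20 reads, 2-fold and an interval leaving out equality; at least 10 reads counted as measured.

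The members and lists were chosen with earlier results of these data known. All 18 genes, the 2 other germline and the 2 housekeeping genes with the most and the fewest reads over input at WT ends, and of each gene its window with the most reads were to be named. Start regions, their windows and motifs, and the windows of Figla and Zp3, were added after values were seen. RefSeq tables of GRCm38.p6 gave names, spans and starts; exons were not used here. Alternatives covered scaling (sum over listed windows, TMM of edgeR 4.0.16), read minimum, input, CpG factor, flank and windows per read. Of the other germline list 26 of 73 genes lay in range, and of the housekeeping list 26 of 36.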

Additional observations from a re-analysis of the deposited data

How the results depend on the processing

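Neither called ratio, Figla over its locus and Zp3 at its ends, changed direction under an alternative. Of 359 recomputed ratios of single genes, all stayed within the interval of the main value. Of these, 19, in 9 genes, crossed 1, each with an interval that holds 1. Many of the 359 had little or no room to move. The locus minimum of 10 reads, a read counted in 5 windows and the limit on input reads left the ratios unchanged. The changes of scaling moved all ratios by a common factor. The count of loci called, 1, became 0 with windows of at least 20 MeDIP reads and with no flank. It also became 0 with a CpG factor of at least 3 and, chosen after seeing the data, with a read counted in 5 windows. Each leaves Figla with fewer reads. With no flank, at 1.54, and with windows of at least 20 MeDIP reads, the Figla ratio also fell below 2-fold. Both settings leave out its upstream windows listed through PLZFon reads. With a CpG factor of at least 3 and with a read counted in 5 windows it stayed above 2-fold, and the interval reached equality. At gene ends the count of 1 became 0 with windows of at least 20 MeDIP reads. Within 2000 bp it stayed 1, but Zp3, at 0.507, was no longer called and Figla, at 2.28 (1.07 to 5.05), was. The minimum of 20 reads raised pull-down over input to 5.69 in WT and 5.30 in PLZFon at ends, and to 6.09 and 5.48 over bodies. A CpG factor of at least 3 gave bodies 4.36 in WT and 4.26 in PLZFon. The share of tiles listed around starts of the germline genes was 7.0% with at least 20 reads, 38.0% within 500 bp and 20.9% within 2000 bp. The share over all genes was not computed at these settings, so none of these can be set against the 7.98% above.

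Members with a listed start window numbered 5 with at least 20 reads, where all genes fell to 3.59% and CpG-rich ones to 1.39%. They numbered 8 with at least 5 reads in each MeDIP library, against 7.22 and 2.69%. With any annotated start of a gene counted, and not only the outermost, they numbered 12, against 11.5 and 6.14%. Under TMM scaling the ratio over all 18 loci was 0.967. No paired analysis was possible because each genotype has 1 MeDIP library and 1 input. No start region of these genes reached the 20 MeDIP reads that a call needs, so none could be called at this depth.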
